A study of Homo sapiens with 8 samples.

Results

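The genes described here are the numbered ZNF genes, those whose symbol is ZNF followed by a number and at most a letter A or B, leaving out ZNF217, that were well expressed in SKBR3 cells. A gene was taken if its mean CPM (the count divided by the library's total and multiplied by 1000000) was at least 10 in the control or in the FOXA1 knockdown libraries. Of 485 such ZNF genes among the 30434 genes counted, 224 met this rule. They comprised 166 genes at 10 CPM or more in both groups, 22 in control only and 36 in knockdown only. A gene that met the rule in 1 group only had to differ between the groups, so the levels of those genes are given as a description with no test.

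SKBR3 is an established line from a human breast cancer with amplified ERBB2 (HER2). RNA was sequenced from 4 libraries of control cells, whose genotype is labelled WT, and 4 of a stable line made by lentiviral transduction with 3 short hairpin RNAs against FOXA1, a pioneer transcription factor of luminal cells. Both were grown in DMEM with GlutaMAX, 10% fetal bovine serum, penicillin and streptomycin. The labels do not say whether the controls carried a control vector, whether the line is 1 clone, or how replicates were made, so p-values measure only the spread between these libraries, which may be technical, and the knockdown cannot be told apart from other differences between the lines.

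The libraries held 19087878 to 23786684 counts, at which 3 counts correspond to 0.123 to 0.153 CPM after scaling. Values given from here on are normalised CPM, scaled by TMM, a method that corrects for differences in RNA composition. FOXA1 itself stood at 192 ± 1.65 CPM in control and 3.96 ± 0.34 in knockdown (SD, n = 4 each), 2.06% of control. The luminal markers ERBB2, GRB7, KRT8, KRT18, KRT19, EPCAM and ELF3 stood at 117 CPM or more in both groups. Their levels were not equal between the groups. ERBB2 was at 7308.2 CPM in control and 1340.1 in knockdown, KRT19 at 2645.1 and 723, ELF3 at 471 and 117, and GRB7 at 363 and 125. KRT8, KRT18 and EPCAM had higher means in knockdown, at 5619.2, 3456.7 and 226 CPM against 4518.8, 2312.1 and 179. Of 13 markers of fibroblasts, immune cells and endothelium, 11 were among the genes counted, and 6 stood below 1 CPM in both groups. COL1A1 was at 5.38 and 4.33 CPM in control and knockdown, PDGFRB at 0.41 and 2.83, and the endothelial VWF at 5.22 and 0.845. The macrophage marker CSF1R was at 72.5 and 59.7 CPM and the endothelial marker CDH5 at 16.1 and 20.1 CPM in control and knockdown, while the defining markers PTPRC and PECAM1 had at most 3 and 6 counts in any library.

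Most numbered ZNF proteins carry arrays of C2H2 zinc fingers, small zinc-bound folds that each read a few bases of DNA. Many also carry a KRAB domain, which binds TRIM28 (KAP1). TRIM28 in turn recruits the histone H3 lysine 9 methyltransferase SETDB1 and heterochromatin protein 1, and this machinery silences retroelements. The family grew by tandem duplication, which left large clusters of related genes, above all on chromosome 19. Other ZNF genes share the name but not this role, and work in ribosome maturation, RNA binding, mitosis or the cytoskeleton.

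The sequences below are shown because a regional pattern among the genes concerned a cluster on the long arm of chromosome 19, and because many promoters of its genes share a stretch of sequence. Each runs from 250 bases before to 50 bases after the annotated start (RefSeq, GRCh38.p14), 5′ to 3′ along the gene's strand. Capitals mark AGGCCCCGCC on either strand, the 10 letters found in the largest number of promoters of that cluster's well-expressed ZNF genes. ZNF347 (chr19:53159004-53159303, minus strand), ZNF677 (chr19:53254774-53255073, minus strand), ZNF761 (chr19:53431734-53432033, plus strand) and ZNF320 (chr19:52897645-52897944, minus strand) hold it. All of these also share GGAAGCGGAT, which is not marked and for which no count is given here.
ZNF347: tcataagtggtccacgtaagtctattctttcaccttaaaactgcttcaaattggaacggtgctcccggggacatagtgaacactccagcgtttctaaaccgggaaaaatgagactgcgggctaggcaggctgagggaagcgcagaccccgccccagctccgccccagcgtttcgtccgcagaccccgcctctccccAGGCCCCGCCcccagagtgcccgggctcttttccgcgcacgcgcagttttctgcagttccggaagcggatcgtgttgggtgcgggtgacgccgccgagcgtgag
ZNF677: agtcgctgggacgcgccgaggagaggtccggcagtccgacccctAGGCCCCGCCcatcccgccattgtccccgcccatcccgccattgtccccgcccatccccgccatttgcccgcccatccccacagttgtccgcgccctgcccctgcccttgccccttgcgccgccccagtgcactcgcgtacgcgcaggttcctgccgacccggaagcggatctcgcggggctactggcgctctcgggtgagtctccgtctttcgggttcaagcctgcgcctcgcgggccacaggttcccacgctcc
ZNF761: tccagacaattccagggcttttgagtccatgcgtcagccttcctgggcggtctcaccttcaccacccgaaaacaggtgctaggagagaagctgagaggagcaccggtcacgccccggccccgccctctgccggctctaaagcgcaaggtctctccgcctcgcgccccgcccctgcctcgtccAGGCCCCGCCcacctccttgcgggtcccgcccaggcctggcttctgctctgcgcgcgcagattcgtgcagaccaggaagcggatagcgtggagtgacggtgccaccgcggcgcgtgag
ZNF320: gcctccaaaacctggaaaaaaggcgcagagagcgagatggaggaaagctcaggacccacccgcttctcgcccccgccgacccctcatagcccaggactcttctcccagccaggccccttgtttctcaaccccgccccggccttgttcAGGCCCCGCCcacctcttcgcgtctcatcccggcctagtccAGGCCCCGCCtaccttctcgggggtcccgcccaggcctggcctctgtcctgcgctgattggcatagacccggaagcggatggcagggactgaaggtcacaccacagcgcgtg

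ZNF175 (chr19:51571033-51571332, plus strand), at one end of the same cluster, lacks these letters in the window. ZNF853 (chr7:6615360-6615659, plus strand), ZNF518B (chr4:10457377-10457676, minus strand) and ZNF22 (chr10:45000673-45000972, plus strand) lie elsewhere, lack them too, and are shown because their knockdown levels stood far above control.
ZNF175: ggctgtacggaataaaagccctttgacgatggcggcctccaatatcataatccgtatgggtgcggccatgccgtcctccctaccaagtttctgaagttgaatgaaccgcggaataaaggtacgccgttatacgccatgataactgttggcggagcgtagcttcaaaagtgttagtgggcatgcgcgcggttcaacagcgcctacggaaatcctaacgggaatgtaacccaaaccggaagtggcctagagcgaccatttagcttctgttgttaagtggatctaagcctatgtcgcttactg
ZNF853: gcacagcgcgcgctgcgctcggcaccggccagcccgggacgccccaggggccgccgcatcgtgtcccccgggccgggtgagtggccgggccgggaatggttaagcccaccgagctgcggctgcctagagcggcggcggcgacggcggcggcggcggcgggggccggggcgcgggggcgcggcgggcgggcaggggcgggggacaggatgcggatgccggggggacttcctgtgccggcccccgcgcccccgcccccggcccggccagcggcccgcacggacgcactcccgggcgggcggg
ZNF518B: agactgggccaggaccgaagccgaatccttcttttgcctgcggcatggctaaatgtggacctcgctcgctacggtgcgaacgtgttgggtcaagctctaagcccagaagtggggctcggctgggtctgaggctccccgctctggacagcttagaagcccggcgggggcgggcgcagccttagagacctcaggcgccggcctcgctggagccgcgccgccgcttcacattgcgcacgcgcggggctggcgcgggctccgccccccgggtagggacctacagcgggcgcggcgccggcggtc
ZNF22: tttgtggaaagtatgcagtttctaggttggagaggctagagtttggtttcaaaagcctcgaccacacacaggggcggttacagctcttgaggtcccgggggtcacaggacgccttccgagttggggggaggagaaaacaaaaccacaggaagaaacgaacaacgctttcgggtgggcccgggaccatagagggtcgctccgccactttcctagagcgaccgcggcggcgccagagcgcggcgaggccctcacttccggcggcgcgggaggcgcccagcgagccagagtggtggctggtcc

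Promoter entries were matched for 195 of the 224 genes. AGGCCCCGCC stood in 13 of the 20 promoters matched in the chromosome 19 cluster (65%), in 12 of 175 of the other well-expressed ZNF genes (6.86%), in 5.47% of promoters of all tested genes and in 3.13% of all 27305 promoters listed. Among numbered ZNF genes below 10 CPM in the cluster's span, 3 of 11 promoters held it (27.3%). Of well-expressed KRAB genes outside the cluster, 9 of 84 did (10.7%). The stretch was picked for being frequent among the cluster's well-expressed genes, so its frequency there is a description. In 12 of the 13 promoters of well-expressed genes a match began between positions -68 and -51 from the start. All matches in these 13 had the orientation written. Among the cluster's genes at 10 CPM or more in both groups, the 7 with the stretch had a median log2 fold change (knockdown over control) of 0.41 and the 4 without it one of 0.77.

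Shorter motifs were also counted on both strands. The forkhead core, TGTTTAC or TATTTAC, stood in 3 of the 195 promoters (1.54%), against 3.67% of promoters of tested genes and 6.05% of all promoters. The ZNF143 core, ACTACAA, stood in 18 (9.23%), against 3.74% and 2.95%. CCGGAAG, the core letters of an ETS site, was added after the sequences had been read, and stood in 84 (43.1%), against 18.8% and 10.7%. For CCGGAAG the share was 39.8% among genes called higher or chosen through knockdown only and 50% among those called lower or chosen through control only. A match is not evidence of a bound site, and the absence of letters from this window says nothing of the factor.

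Over the family as a whole the levels moved in both directions and mostly by little. The 224 genes together summed to 6553.7, 6481.0, 6297.6 and 6527.0 CPM in control libraries 1 to 4 and to 6780.1, 6919.9, 6730.7 and 6718.7 CPM in knockdown libraries 1 to 4. The sums did not overlap between groups, but they include genes that were chosen through 1 group. The 166 genes at 10 CPM or more in both groups summed to 5843.8 ± 109 CPM in control and 6122.2 ± 80.1 in knockdown (SD, n = 4 each).

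**Figure D1:**
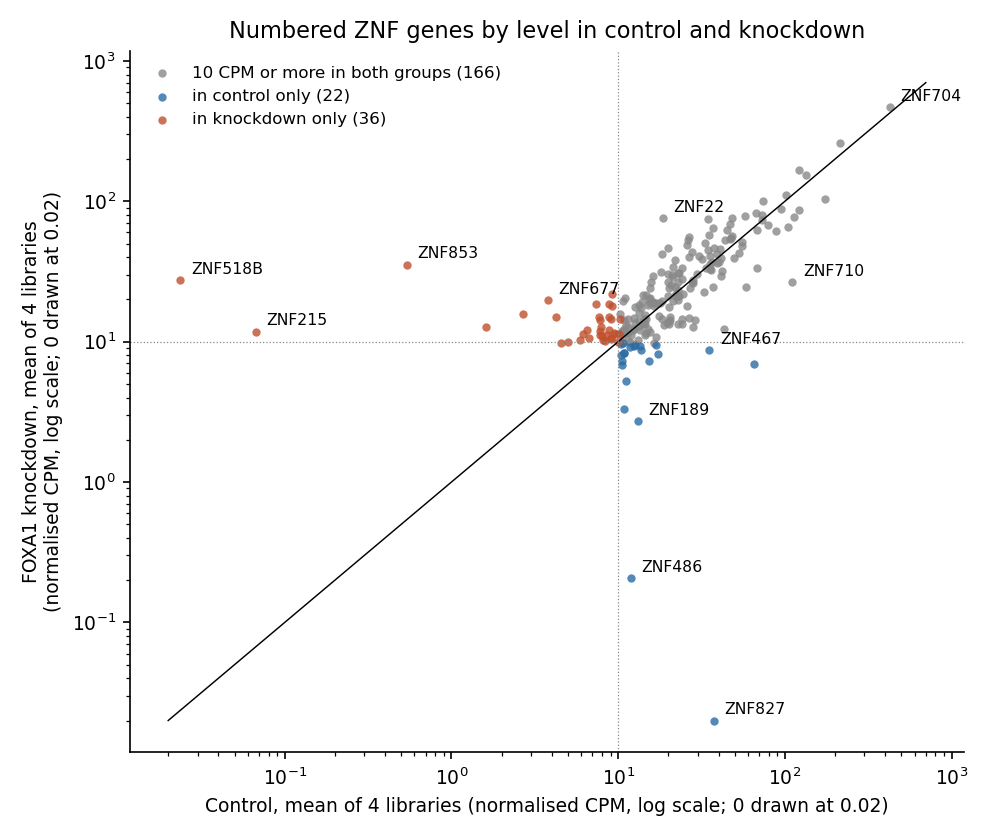
Each point is 1 of the 224 numbered ZNF genes, with its mean normalised CPM over 4 control libraries on the horizontal and over 4 knockdown libraries on the vertical log axis; dotted lines mark 10 CPM, the solid line equal levels, and a level of 0 is drawn at 0.02. Most points lie near the line of equal levels, with ZNF827 and ZNF486 far below it and ZNF518B, ZNF215 and ZNF853 far above.

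Among the 166 genes at 10 CPM or more in both groups, 74 rose and 49 fell in knockdown (edgeR quasi-likelihood test, Benjamini-Hochberg adjusted p under 0.05 over all 16430 genes tested), and 43 were not called. In all, 74.1% of them were called, against 77.1% of all genes tested (39.4% higher, 37.7% lower) and 82.4% of all genes at 10 CPM or more in both groups. Of the 166, 12 (7.23%) were called with a change of 2-fold or more, against 11.4% of all genes at 10 CPM or more in both groups and 28.3% of all genes tested. Their median log2 fold change was 0.09 and their median absolute log2 fold change 0.29. The same values were 0.02 and 0.51 over all genes tested, and -0.03 and 0.36 over the 8560 genes at 10 CPM or more in both groups. For 109 of the 166 the 4 control and 4 knockdown libraries did not overlap, as for 72.0% of genes tested.

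The split between rises and falls depended on what was taken as unchanged. With library size as the only scaling, which put the median of all genes at 0.103, the 166 genes gave 84 rises and 36 falls. When the median change of the 50 nearest tested genes that are not numbered ZNF genes was subtracted, they gave 53 rises and 63 falls. So the excess of rises over falls was not present relative to neighbouring genes.

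The 6 largest rises among genes at 10 CPM or more in both groups were all 2.01-fold or more by the means. ZNF22, a small C2H2 protein encoded at chr10:45000475-45005326, stood at 19.2, 17.8, 16.2 and 20.8 CPM in control libraries 1 to 4 and at 78.8, 71.6, 78.5 and 74.3 in knockdown libraries 1 to 4. Every knockdown library was thus more than 3 times any control library, and the log2 fold change was 2.03 (SE 0.0828, edgeR adjusted p = 1.03e-19). Its 50 neighbours had a median of 0.6.

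ZNF618, which binds the methyl-DNA reader UHRF2, was at 34.1, 37.2, 34.7 and 33.2 CPM in control and 72.9, 75, 73.5 and 79.3 in knockdown. The groups were well apart, with a log2 fold change of 1.11 (SE 0.044, edgeR adjusted p = 4.62e-17), while the median of its neighbours was -0.46. ZNF496, a partner of the histone methyltransferase NSD1, was at 25.2, 26.5, 27.5 and 26.8 CPM in control and 56.2, 55.9, 55.8 and 55.8 in knockdown, a log2 fold change of 1.08 (SE 0.0267, edgeR adjusted p = 6.13e-17). The 4 knockdown libraries of ZNF496 were nearly equal and lay far above all control libraries.

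The remaining 3 of the largest rises, ZNF320, ZNF761 and ZNF331, lie in the chromosome 19 cluster. ZNF320 was at 19.8 ± 0.64 and 46.6 ± 1.8 CPM in control and knockdown (SD, n = 4 each), ZNF761 at 18.2 ± 2.09 and 42.3 ± 2.42, and the imprinted gene ZNF331 at 26.4 ± 0.733 and 52.9 ± 1.51. Their log2 fold changes were 1.23, 1.21 and 1.00, and no control library reached a knockdown library in any of them. ZNF320 is uncertain as a single gene: only 20.6% of its 31-letter stretches occur in no other gene, and it shares 6021 exonic bases with ZNF468 on the same strand.

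Falls of comparable size were seen for 6 genes. ZNF710 (chr15:90001392-90082206) was at 114, 106, 117 and 106 CPM in control libraries 1 to 4 and 24.8, 28.6, 25.7 and 28.0 in knockdown libraries 1 to 4. Every knockdown value lay far below the lowest control value, with a log2 fold change of -2.05 (SE 0.0613, edgeR adjusted p = 6.82e-22), and the neighbours' median was -0.54. The gene overlaps its antisense transcript ZNF710-AS1 over 793 exonic bases, and it is not stated whether reads were counted by strand.

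ZNF740, on chromosome 12, fell from 43.1 ± 1.00 to 12.4 ± 0.741 CPM (log2 fold change -1.80, neighbours -0.87), and ZNF629, on chromosome 16, from 58.3 ± 2.91 to 24.5 ± 1.44 (log2 fold change -1.25, neighbours 0.05). ZNF277 on chromosome 7 fell from 28.7 ± 2.22 to 14.2 ± 0.743 (log2 fold change -1.01). Control and knockdown libraries did not overlap for any of these.

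The other 2 large falls were in genes that have no C2H2 finger by the pattern searched. ZNF750, a transcription factor of epidermal differentiation, was at 31.2, 27.1, 27.0 and 27.9 CPM in control and 13.4, 12.9, 10.9 and 13.4 in knockdown (log2 fold change -1.15, SE 0.0865). ZNF185, a LIM domain protein of the actin cytoskeleton, was at 63.9, 70.8, 68.1 and 67.8 CPM in control and 32.6, 31.2, 33.2 and 36.1 in knockdown (log2 fold change -1.03, SE 0.0541). In both genes the groups were apart, with edgeR adjusted p of 6.37e-14 and 9.37e-16. All 4 well-expressed genes without a found finger fell, the others being ZNF330 and ZNF839.

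**Figure D2:**
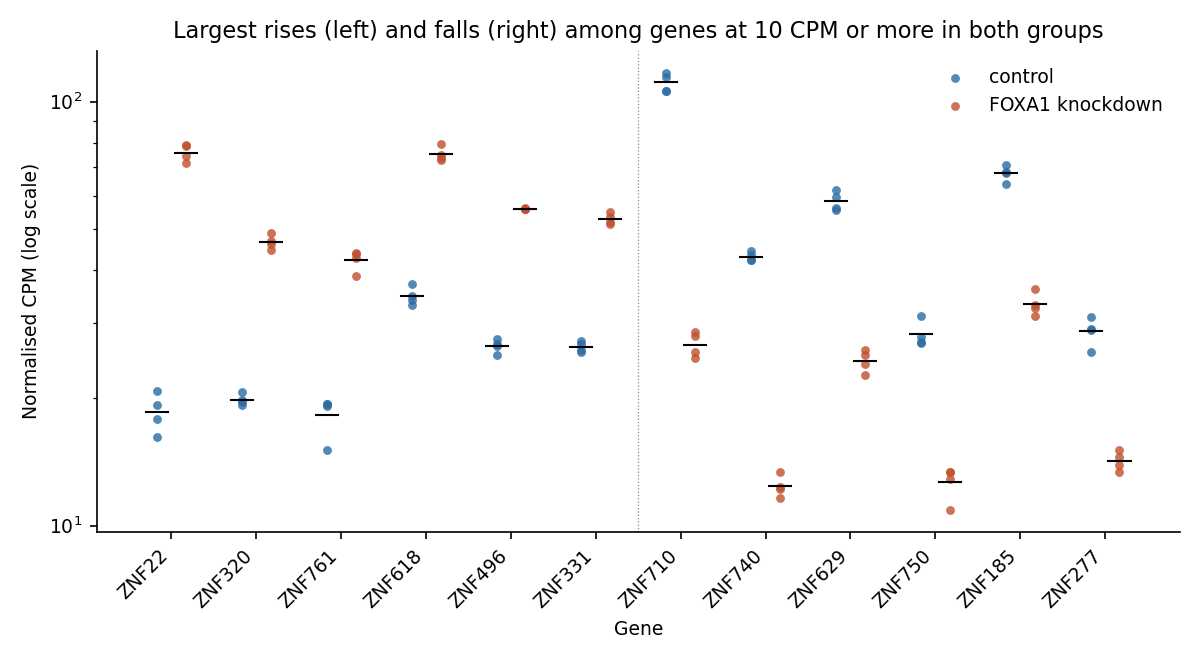
Normalised CPM on a log axis in each control (blue) and knockdown (red) library for the 6 largest rises, left of the dotted line, and the 6 largest falls, right of it; black bars are means of 4 libraries. In all 12 genes the 4 control points and the 4 knockdown points do not overlap.

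Genes at 10 CPM or more in control only numbered 22, and the lowest of them in knockdown had no counts there. ZNF827, which recruits the NuRD chromatin complex, was at 37.9, 40.1, 35.1 and 36.6 CPM in control and had 0 counts in all 4 knockdown libraries. Against a floor of 3 counts per library its level was at least 245-fold lower. ZNF486, a KRAB gene on chromosome 19, was at 11.9 ± 0.798 CPM in control and had 4, 5, 7 and 2 counts in the knockdown libraries, 0.206 ± 0.111 CPM.

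ZNF385A, which binds p53 and was picked here after its values were seen, was at 65.2 ± 5.05 CPM in control and 6.93 ± 0.898 in knockdown. ZNF189 was at 13.1 ± 1.31 and 2.73 ± 0.31 CPM, ZNF772 at 10.8 ± 0.36 and 3.33 ± 0.459, ZNF419 at 11.2 ± 0.632 and 5.27 ± 0.227, and ZNF283 at 10.6 ± 1.1 and 6.87 ± 0.709. The last 3 are KRAB genes of chromosome 19. Of the 22 genes, 19 had control and knockdown libraries that did not overlap, against 72.0% of genes tested, a count from which nothing is read since the rule chose these genes for a low knockdown mean.

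Genes at 10 CPM or more in knockdown only numbered 36. ZNF853, on chromosome 7, was at 0.366, 0.499, 0.617 and 0.689 CPM in control and 35.3, 35.9, 33.7 and 36.8 in knockdown, 65.2-fold higher by the means. ZNF518B, which binds the histone methyltransferase G9a, had 0, 0, 2 and 0 counts in control and 29.2, 27.8, 26.9 and 26.4 CPM in knockdown. The ratio of its summed counts, scaled for depth, was 1217.9 with a 95% counting interval from 337 to 10062.1, which covers counting error only.

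ZNF215, a KRAB gene of chromosome 11 named here after its values were seen, had 6 control counts in all and 11.8 ± 0.691 CPM in knockdown, a ratio of 173 (95% counting interval 79.4 to 474). ZNF823 was at 7.4 ± 0.76 and 18.5 ± 0.391 CPM in control and knockdown. In 30 of the 36 genes the libraries of the groups did not overlap, against 72.0% of genes tested, and this too follows from how they were chosen. ZNF813, ZNF677 and ZNF614, also among the highest in knockdown, belong to the chromosome 19 cluster described next.

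Numbered ZNF genes whose starts lie at most 1000000 bases apart formed 8 clusters with at least 5 well-expressed genes, 5 of them on chromosome 19. In all, 86 of the 224 genes (38.4%) lie on chromosome 19, as do 239 of the 484 numbered ZNF genes with a position (49.4%) and 1137 of 16209 tested genes (7.01%). The counts of calls in clusters stand beside 39.5% higher and 42.9% lower among all genes at 10 CPM or more in both groups. Over all genes tested the shares were 39.4% and 37.7%.

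The cluster at chr19:51571298-53580269 (GRCh38) held 38 numbered ZNF genes, of which 24 were well expressed. Of these, 10 reached 10 CPM in knockdown only and 0 in control only. Of the 14 at 10 CPM or more in both groups, 12 rose and 1 fell, with a median log2 fold change of 0.52 and a range from -0.19 for ZNF888 to 1.23 for ZNF320.

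ZNF677, a KRAB gene with 10 fingers, was at 3.48, 3.99, 3.99 and 3.79 CPM in control and 18.9, 19.2, 19.4 and 21.9 in knockdown. ZNF347 was at 2.79, 2.50, 2.47 and 3.02 CPM in control and 14.5, 17.5, 16.2 and 15.2 in knockdown. ZNF175 was at 1.47, 1.95, 1.42 and 1.59 CPM in control and 12.5, 14.1, 12.3 and 12.3 in knockdown. The groups were far apart in all 3 genes, which stood 5.2-fold, 5.87-fold and 7.96-fold higher in knockdown by the means. ZNF347 and ZNF175 were named after their values were seen. ZNF813 was at 9.19 ± 0.564 and 22.0 ± 1.47 CPM and ZNF614 at 8.81 ± 0.995 and 18.6 ± 0.97.

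The pattern in this interval was not limited to well-expressed ZNF genes. Of 13 numbered ZNF genes there that were tested but below 10 CPM in both groups, 9 rose and 2 fell, with a median log2 fold change of 0.67. Of 10 other tested genes in the interval, 9 rose and 1 fell, with a median of 0.8. Most of these 10 carry only an identifier as a name, and zinc finger genes may be among them. PPP2R1A, a phosphatase scaffold, had the smallest of the rises at 0.25, and SPACA6 was at 1.06. TPM3P9, at 1.66, shares 36 exonic bases with ZNF761 on the same strand. After the median change of the 50 nearest other genes was subtracted, 5 of the 14 genes were called higher and 8 lower, with a median of -0.31 and a range from -1.09 to 0.73. The rises of this cluster therefore did not, as a group, exceed those of its neighbours. Genes chosen through knockdown only lay on both sides of 0 after this subtraction. ZNF175 was at 2.44, ZNF347 at 1.65, ZNF677 at 1.47, ZNF813 at 0.77, ZNF614 at 0.49 and ZNF616 at 0.29. Below 0 were ZNF600 at -0.7, ZNF611 at -0.11 and ZNF432 at -0.06. The part of a change shared by the region in these values was not tested.

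The other chromosome 19 clusters gave other counts. At chr19:7069444-9793180, of the 5 genes at 10 CPM or more in both groups 4 fell and 0 rose (median log2 fold change -0.53). There ZNF561 was at 26.1, 27.9, 25.4 and 26.7 CPM in control and 14.8, 15.2, 12.5 and 16.7 in knockdown, and the 33 other tested genes had a median of 0.05. At chr19:43525497-45076588, 6 of 10 well-expressed genes reached 10 CPM in control only, while of the 4 in both groups 2 rose and 0 fell (median 0.16), and the 25 other genes had a median of -0.11. The largest cluster, chr19:55476332-58481230, held 28 well-expressed genes, and of the 23 at 10 CPM or more in both groups 8 rose and 7 fell (median -0.02). At chr19:36182060-37817300 only 5 of 26 ZNF genes were well expressed, but of 20 tested below 10 CPM 12 rose and 1 fell.

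In the cluster at chr7:149069643-150398631 the ZNF genes at 10 CPM or more in both groups and the other genes gave different counts. Of the 7 ZNF genes at 10 CPM or more in both groups 3 rose and 0 fell (median log2 fold change 0.03), while 8 of 9 other tested genes fell and their median was -0.64. Among the 7, ZNF783 was highest at 0.87. It shares 1985 exonic bases on the same strand with LOC155060, which was counted with the other genes at -0.64. The other genes were set apart by symbol only, so zinc finger genes under other names may be among them. Other ZNF genes of the cluster fell: ZNF467, chosen through control only, was at -2.02. Of 3 ZNF genes tested below 10 CPM there, 1 rose and 2 fell. With the median change of the 50 nearest other genes subtracted, the median of the 7 was 0.03 as before. The difference between ZNF genes and neighbours was not tested, since genes of a cluster are not replicates. On chromosome 16, 2 clusters held 3 and 7 genes at 10 CPM or more in both groups, with medians of 0.04 and 0.14.

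**Figure D3:**
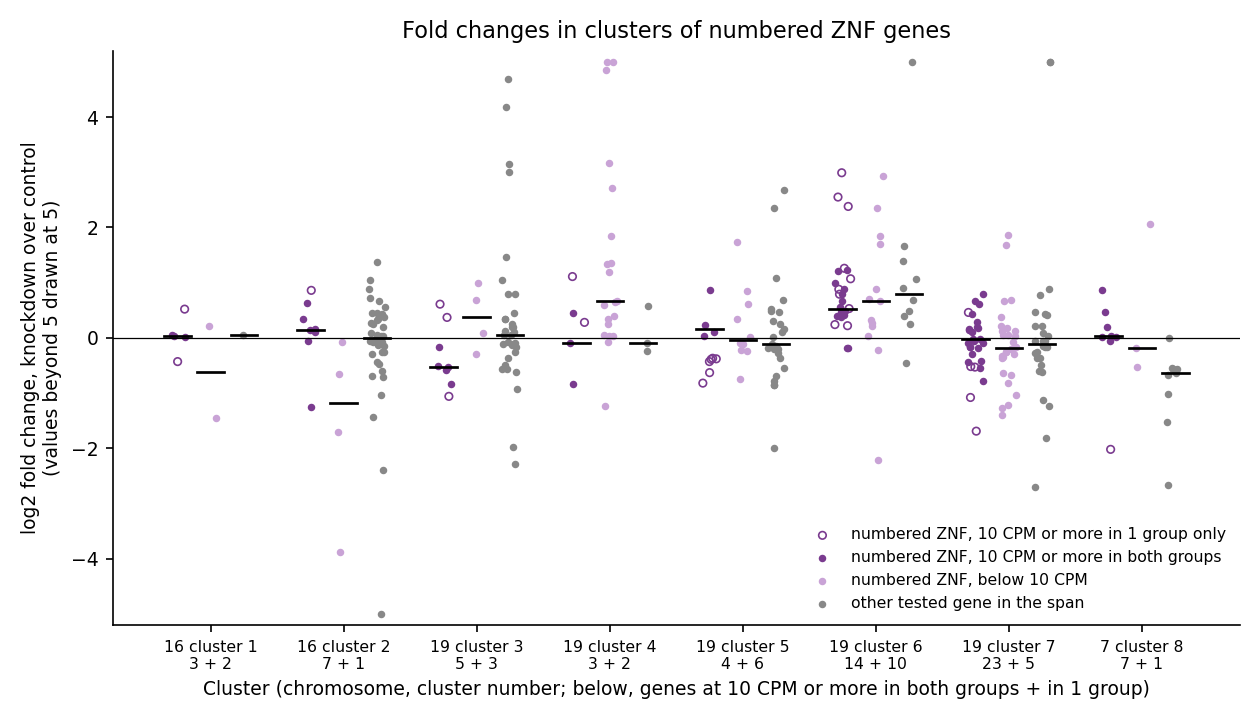
Log2 fold change, knockdown over control, of genes in the 8 clusters, split into numbered ZNF genes at 10 CPM or more in both groups (filled purple) or in 1 group only (open purple), below 10 CPM (pale), and other tested genes in the same span (grey); bars are medians, none is drawn for the open points, and values beyond 5 or -5 are drawn there. In 19 cluster 6 (chr19:51571298-53580269) the medians are 0.52, 0.67 and 0.8, while in 7 cluster 8 the ZNF genes in both groups have a median of 0.03 and the other genes one of -0.64. Other genes were set apart by symbol only.

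On 6 chromosomes with at least 2 calls, all calls among ZNF genes at 10 CPM or more in both groups were in 1 direction. On every other chromosome with at least 2 calls they went both ways, as on chromosome 7 with 4 rises and 9 falls. All 5 well-expressed ZNF genes of chromosome 15 fell (median -0.66), where other tested genes had a median of -0.25. All 5 genes of chromosome 5 at 10 CPM or more in both groups rose (median 0.49), where other genes had a median of 0.45. Of the 6 such genes of chromosome 10, 4 rose and 0 fell (median 0.47), where other genes had a median of 0.35. On chromosome 6, 4 of 6 rose (median 0.23, other genes 0.19), on chromosome 14 all 3 fell (median -0.35, other genes -0.05) and on X both fell (median -0.83, other genes 0.18). Among other tested genes, 50.8% were called lower on chromosome 15, 63.4% higher on 5, 57.5% higher on 10 and 50.3% higher on 6. The shares called lower were 42.1% on 14 and 28.3% on X. Over all genes tested, 39.4% were higher and 37.7% lower. The part of chromosome-wide shifts in the counts of ZNF genes was not tested.

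The genes were then sorted by the domains their coding sequences encode, found as codon patterns. A KRAB A box and at least 1 C2H2 finger were found in 117 genes, fingers without KRAB in 103 and no finger in 4. KRAB genes had a median of 12 fingers and 57.3% lay on chromosome 19. Genes without KRAB had a median of 7 fingers and 18.4% lay on that chromosome. Of the 77 KRAB genes at 10 CPM or more in both groups, 33 rose and 23 fell (median log2 fold change 0.03), and of 85 without KRAB, 41 rose and 22 fell (median 0.12). The shares called were 72.7% and 74.1%. Among all genes at 10 CPM or more in both groups 82.4% were called, and among all genes tested 77.1%. The search misses some divergent KRAB boxes, so the class without KRAB may hold a few.

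**Figure D4:**
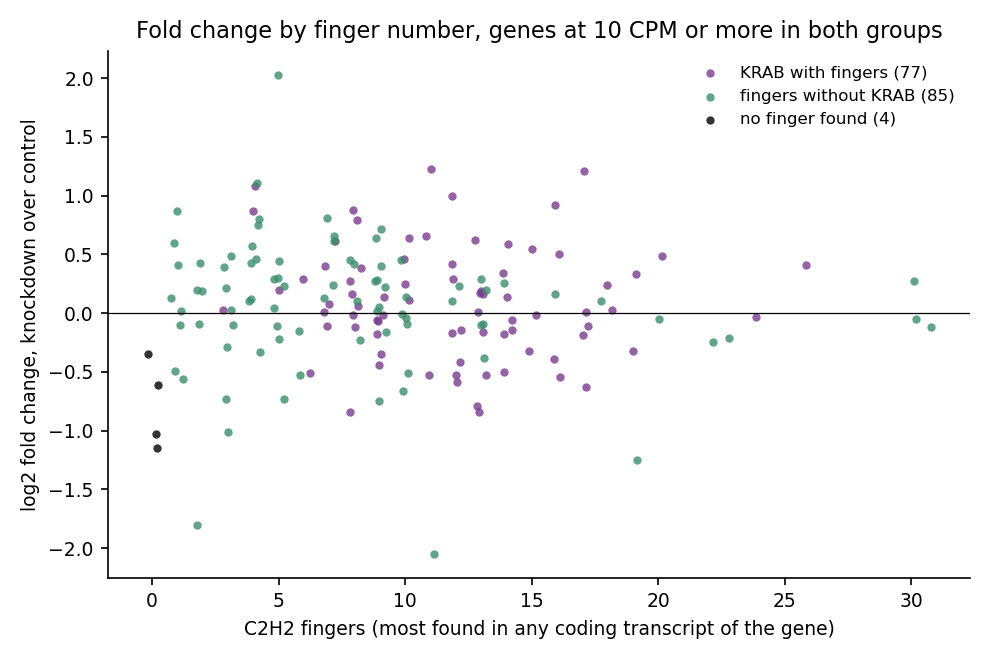
Log2 fold change, knockdown over control, of the 166 genes at 10 CPM or more in both groups against the number of C2H2 fingers found in their coding sequence (points spread slightly sideways), coloured by domain class. KRAB and non-KRAB genes both spread around 0, with medians of 0.03 and 0.12, and the 4 genes with no finger found all lie below 0.

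The corepressor side of the KRAB pathway was covered by a list of 28 genes, all tested. Of these, 18 rose, 6 fell and 4 were not called (85.7% called, against 77.1% of all genes tested, 39.4% higher and 37.7% lower), with a median log2 fold change of 0.37 against 0.02. All but ATF7IP2 stood at 10 CPM or more in both groups. Of all genes at that level 82.4% were called (39.5% higher, 42.9% lower), with a median of -0.03. TRIM28, the direct KRAB partner, was at 340, 329, 374 and 339 CPM in control and 583, 581, 570 and 605 in knockdown. No control library reached a knockdown library, and the log2 fold change was 0.76 (SE 0.0436, edgeR adjusted p = 1e-15). SETDB1, the methyltransferase it recruits, rose from 52.9 ± 1.53 to 78.6 ± 2.25 CPM (log2 fold change 0.57, SE 0.0294, edgeR adjusted p = 3.89e-12).

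CBX5, which encodes heterochromatin protein 1 alpha, rose from 161 ± 3.7 to 332 ± 16.2 CPM, the largest rise in the list at a log2 fold change of 1.05. SUV39H2, an H3 lysine 9 methyltransferase, followed at 0.98. UHRF1, which guides maintenance DNA methylation, fell from 78.2 ± 0.955 to 38.3 ± 0.685 CPM (log2 fold change -1.03). The NuRD helicase CHD4 fell from 606 ± 11.5 to 409 ± 16.2 CPM (log2 fold change -0.57), while the related CHD3 rose by 0.41 on the log2 scale. Subunits of the HUSH silencing complex, TASOR, MPHOSPH8 and PPHLN1, rose by 0.57, 0.49 and 0.33. With the median change of 50 neighbours subtracted, TRIM28 was at 0.67, SETDB1 at 0.44, CBX5 at 0.96 and SUV39H2 at 0.32. HDAC2, EHMT2, TASOR2 and HELLS, all called higher before, were then at 0.06, 0.04, -0.01 and -0.13. MPHOSPH8 and CBX3 were higher after it, at 0.91 and 0.71, and ATF7IP, not called before, was at 0.46. EHMT1 and DNMT1, both called lower before, were then called higher at 0.14 and 0.11 (edgeR adjusted p = 0.00339 and 0.0102). The other falls, of UHRF1, CHD4, MORC2 and MTA1, stayed below 0 at -0.76, -0.82, -0.37 and -0.29.

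**Figure D5:**
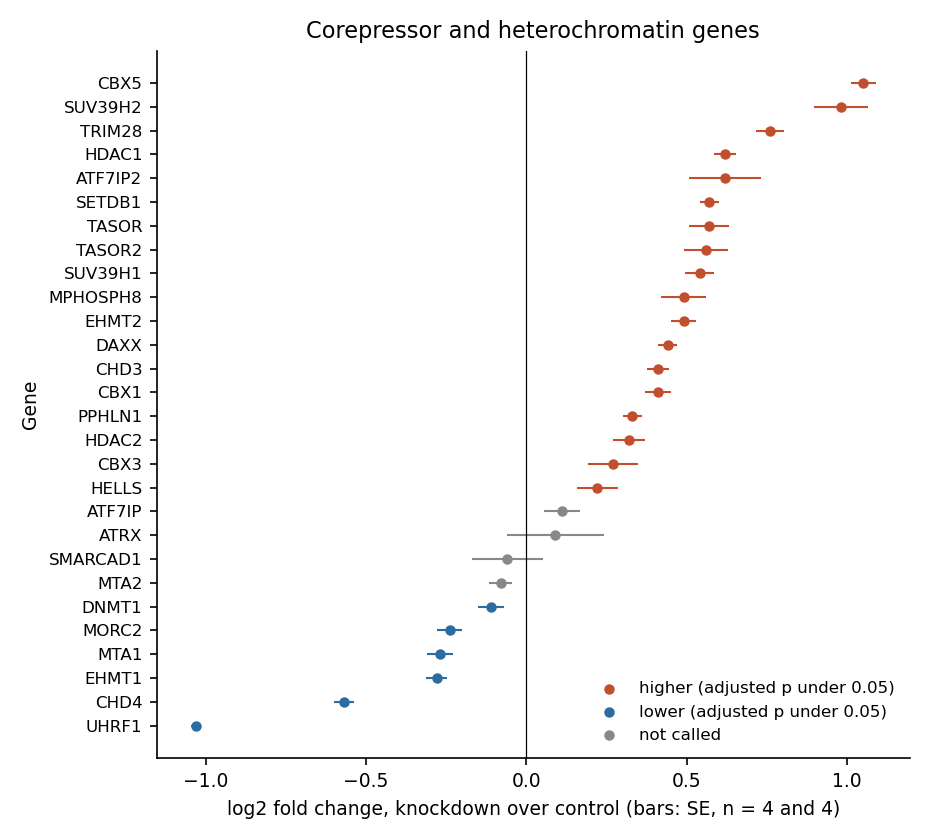
Log2 fold change, knockdown over control, of 28 corepressor and heterochromatin genes, with SE from the spread of 4 and 4 libraries, coloured by call at an adjusted p under 0.05. The 18 genes called higher run up to CBX5 at 1.05, and the 6 called lower down to UHRF1 at -1.03.

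Well-expressed ZNF genes with known roles outside KRAB silencing were grouped by function. The counts in these small groups stand beside 82.4% called among all genes at 10 CPM or more in both groups and 77.1% among all genes tested. Among cofactor and architectural factors, 4 of 7 rose and 2 fell (85.7% called). ZNF76, the close relative of the promoter activator ZNF143, rose from 21.8 ± 1.79 to 38.1 ± 1.81 CPM (log2 fold change 0.81), and ZNF143 itself was at 16.4 ± 1.11 and 18 ± 0.594 CPM, with overlapping groups and an edgeR adjusted p of 0.0655. ZNF143 passed the threshold without control replicate 1, at an adjusted p of 0.0262 in edgeR. Among the 4 rises, ZNF24 lost its call without control replicate 3 or knockdown replicate 3 and ZNF292 without control replicate 2 or knockdown replicate 1, 2 or 3, with edgeR adjusted p of 0.0559 to 0.0885. ZNF148, which binds GC-rich promoters, fell by 0.33 and its relative ZNF281 rose by 0.39 on the log2 scale.

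Of the 6 genes that act with chromatin complexes and stood at 10 CPM or more in both groups, 3 rose and 2 fell. ZNF512B, which binds NuRD, rose from 46.8 ± 3.52 to 69.3 ± 2.32 CPM (log2 fold change 0.57). ZNF687 and ZNF592 belong to one complex with ZMYND8, and ZNF687 rose by 0.22 while ZNF592 fell by 0.23. ZNF219 fell by 0.75, and ZNF296 was at 16.8 ± 0.944 CPM in control and 9.53 ± 0.44 in knockdown, chosen through control only. ZNF644, a partner of G9a, was at 47.9 ± 6.89 and 56.7 ± 3.25 CPM with an edgeR adjusted p of 0.0599, which became 0.011 without control replicate 1, 0.0101 without control replicate 3 and 0.0474 without knockdown replicate 4.

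Of 11 factors of RNA, the ribosome and mitosis, 6 rose and 4 fell (90.9% called). ZNF622 and ZNF593, both needed for maturation of the large ribosomal subunit, rose from 44.8 ± 0.981 to 62.8 ± 2.34 CPM and from 33.4 ± 2.04 to 50.5 ± 4.68 CPM. Only 7.3% of the 31-letter stretches of ZNF593 occur in no other gene, so its reads may be shared. The neighbours of ZNF622 had a median log2 fold change of 0.48, close to its own 0.49. ZNF346, which binds double-stranded RNA, rose by 0.75, with its neighbours at 0.62.

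ZNF106, an RNA-binding protein, fell from 173 ± 6.03 to 104 ± 5.29 CPM and the nucleolar protein ZNF330 from 37.3 ± 1.74 to 24.5 ± 1. ZNF207 (BuGZ), a spindle protein, rose by 0.20. ZNF598, the ubiquitin ligase of collided ribosomes, was at 95.4 ± 5.48 CPM in control and 88.7 ± 2.93 in knockdown. Its groups overlapped, and its edgeR adjusted p of 0.0303 became 0.1 without knockdown replicate 1, 0.0918 without knockdown replicate 3, 0.0556 without control replicate 1 and 0.0811 without control replicate 3.

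Among genes linked to epithelium or tumours, ZNF467 was at 34.3, 34.7, 38.2 and 34.2 CPM in control and 8.88, 7.29, 8.15 and 10.5 in knockdown, and had met the rule in control only. The transcriptional repressor ZNF652 rose from 20 ± 1.45 to 30.4 ± 1.47 CPM (log2 fold change 0.61) and ZNF395 by 0.41. ZNF703, a luminal breast cancer gene, stayed below 10 CPM in both groups at 4.39 and 6.71. Of 6 listed repressors of retroelements, 2 were well expressed: ZNF765 rose from 11 ± 0.952 to 20.3 ± 1.04 CPM, and ZNF141 was at 8.83 ± 0.929 and 15.1 ± 2.15. With the median change of 50 neighbours subtracted, ZNF765 was at 0.40 and ZNF141 at 0.13. The rest of the 6 were below 10 CPM in both groups. ZNF649 was at 5.15 CPM in control and 1.1 in knockdown, ZNF93 at 1.63 and 0.123, and ZNF808 at 8.21 and 7.07 with overlapping groups. These were called lower, while ZNF91 had too few counts to be tested.

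The genes with the highest counts were ZNF704, ZNF664, ZNF207, ZNF146 and ZNF106, an order that also depends on transcript length. ZNF704 was at 430, 441, 410 and 424 CPM in control and 454, 497, 461 and 458 in knockdown, groups that did not overlap, with a log2 fold change of 0.13 (SE 0.0367, edgeR adjusted p = 0.00132). ZNF664 rose by 0.27 on the log2 scale. ZNF146 rose by 0.45, but with its neighbours' change subtracted its log2 fold change was -0.05. At the threshold, ZNF251 and ZNF234 lay just inside with control means of 10.06 and 10.05 CPM by the column total, and ZNF586 and ZNF213 just outside with knockdown means of 9.986 and 9.969.

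Below the threshold, 209 numbered ZNF genes were tested, of which 89 rose and 53 fell (67.9% called, against 77.1% of all genes tested, with a median log2 fold change of 0.12). Of other C2H2 families, 7 of 15 numbered ZFP genes rose and 3 fell, 8 of 15 ZSCAN genes rose and 2 fell, and 3 of 6 ZKSCAN genes rose and 0 fell. The shares called were 66.7%, 66.7% and 50%, also below 77.1%. In 6 of the 224 genes fewer than 50% of the 31-letter stretches occurred in no other gene: ZNF286A, ZNF320, ZNF337, ZNF446, ZNF468 and ZNF593. Exons of ZNF395 overlap FBXO16 on the same strand over 2032 bases, and those of ZNF687 and ZNF146 overlap PI4KB and ZNF565 on the opposite strand over 384 and 446 bases.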

How the data were processed

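RNA was sequenced as paired-end reads of 101 bases from 8 libraries, per the labels' protocols. Raw counts of reads were deposited by the authors, 1 value per gene and library. FastQC, Salmon 1.9, DESeq2 (given as 3.16) and hg38 appear in the submitters' processing notes with no role stated. The aligner, the annotation and the use of strand are not given in the sources used here, so counts may be rounded estimates and reads of near-identical paralogues may be split between genes. All 8 count columns were matched to samples by name.

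Groups came from the sample titles. Genes were kept by filterByExpr (minimum 10 counts, total 15), which left 16430 of 30434. Libraries were scaled by TMM (factors 0.965 to 1.04) and compared with the quasi-likelihood test of edgeR 4.0.16 in R 4.3.3, with p-values adjusted by Benjamini-Hochberg over the 16430 genes and called under 0.05. The biological coefficient of variation was 4.56%. The rule for choosing genes used CPM by the column total, and printed levels use TMM-scaled totals. SEs come from log2 CPM with 0.5 added to counts. Tests were also run on simulated counts in which a small part of the genes changed, all by 2-fold or more. That run does not bear on smaller changes, or on scaling where most genes change. Some genes that the marker lists cover are not reported here.

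The genes and lists were chosen with earlier results of these data known. Named genes are the 6 lowest in knockdown of those through control only, the 6 highest of those through knockdown only, the 6 largest rises and falls of those in both groups, the 5 with the highest counts, those nearest the threshold, members of the function lists, TRIM28, SETDB1 and the 2 largest changes each way of the partner list, and FOXA1. Other names, the promoters shown and 2 motifs, AGGCCCCGCC and CCGGAAG, were picked after values or sequences were seen. Positions come from GENCODE 29 (GRCh38) by Ensembl identifier, for all 224 genes. Fingers and KRAB boxes were read as in-frame codon patterns in GENCODE 29 coding sequences, taking the most in any transcript, since no protein table was used here. Promoters come from RefSeq (GRCh38.p14). Alternatives were RLE and library-size scaling, other filters, DESeq2 1.42.0, limma voom, a replicate block, other thresholds of the rule, subtraction of the neighbours' change, and leaving out each library.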

Additional observations from a re-analysis of the deposited data

Results flagged for a closer look

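In groups of 4 libraries, a value was picked out where its gap to the nearest other value made up more of the group's range than Dixon's critical value at 5% allows. Of 140 groups of values screened, mainly those of the named genes, 10 were picked out. Chance gives about 7.0 where every group varies. In control replicate 3, ZNF518B was at 0.095 CPM against 0 in the others, ZNF761 at 15.1 against 19.1 to 19.4, ZNF664 at 202 against 217 to 220, and ZNF467 at 38.2 against 34.2 to 34.7. Control replicate 2 had ZNF281 at 35.8 CPM against 33.8 to 34.1, and control replicate 4 had SETDB1 at 50.6 against 53.6 to 53.8. In knockdown replicate 4, ZNF677 was at 21.9 CPM against 18.9 to 19.4 and ZNF638 at 87.6 against 103 to 105. Knockdown replicate 2 had ZNF704 at 497 CPM against 454 to 461, and knockdown replicate 3 had ZNF622 at 66.3 against 61.5 to 61.7. The ZNF518B value rests on 2 counts. All 10 values lay on their own group's side of every library of the other group.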

How the results depend on the processing

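Over 16 other fits, 1046 values of the 69 named genes kept their side of the threshold (7 of them, never called, changed sign), 24 lost the call, 13 gained one, 17 moved by more than the spread between replicates and 4 changed sign with a call in at least 1 fit. Those 4 did so when the median change of 50 neighbours was subtracted: ZNF146 to -0.05, ZNF24 to -0.10, ZNF326 to -0.34 and ZNF367 to 0.29. That setting gave 53 rises, 63 falls and a median log2 fold change of 0.003 over the 166 genes, and library-size scaling a median of 0.17. Taking genes at 5 CPM or more gave 298 genes, with 110 rises, 76 falls and a median of 0.059 among those past it in both groups. At 20 CPM or more there were 118 genes, of which 41 rose and 23 fell among those past it in both groups, since fewer genes enter. Leaving out each library gave 70 to 76 rises, 43 to 53 falls and a median of 0.067 to 0.095, with 18 to 19 partner genes higher, 5 to 7 lower, and 6354 to 6559 of all genes higher and 6095 to 6306 lower. Replicate numbers do not pair the libraries: same-numbered libraries deviated with correlations of -0.0375 to 0.052, and not every one correlated best with its own number. A replicate block gave 72 rises and 47 falls. Depth limits the genes with few counts in 1 group, where a fold is a bound or has a wide counting interval.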
